A study of Caenorhabditis elegans with 18 samples.

Results

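The transthyretin-related (ttr) genes of Caenorhabditis elegans encode small, mostly secreted proteins. They are followed here through 44 probe sets, those whose annotated gene symbols all begin with ttr-, out of 22548 non-control probe sets on an Affymetrix array. These 44 probe sets stand for 46 genes, since 3 of them are annotated to a pair of genes, and ttr-24 is measured by 2 probe sets. The rule that picks the members reads gene names and no measured value, though the family was taken up with earlier results of these data known. RNA came from whole animals of the wild-type strain N2, grown for 56 h at 22°C on Escherichia coli OP50 to the young adult stage. They were then held for 8 h in S Basal liquid with OP50, 6000 worms to a well, with LK32, LK34, LK35, LK38 or LK56 at 100 µM or with the matching volume of the solvent DMSO. The 5 small molecules came from a search for compounds that keep worms alive in the presence of Pseudomonas aeruginosa, and no pathogen was present in these samples. Each of the 6 conditions was measured on 3 arrays, lettered A, B and C and described as biological replicates, which makes 18 arrays in all. No mutant, transgene or sorted tissue was involved, so every value is an average over the whole body, in which fewer cells of a type and less RNA per cell cannot be told apart.

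Vertebrate transthyretin is a blood and cerebrospinal fluid protein that carries thyroid hormone and, through retinol-binding protein, retinol. It descends from 5-hydroxyisourate hydrolase, an enzyme of urate breakdown, and nematodes have in addition a large family of secreted proteins with a related fold, for most of which no function is known. The best understood member is TTR-52, which binds phosphatidylserine on the surface of dying cells and the engulfment receptor CED-1 on the cells that take them up.

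The family was divided into brighter and dim probe sets by a set limit. Array values overlapped across it, with the dim ttr-10 reaching 49.4 and the brighter ttr-31 going down to 28.5. Of the 44, 26 exceeded 5 on the log2 scale of intensity in at least 3 arrays and are called brighter here, as were 9033 of all probe sets. Among the other 18, 8 lay at the lowest value the arrays report, an intensity of 4.61, on every array (ttr-9, ttr-12, ttr-19, ttr-21, ttr-22, ttr-27, ttr-28 and ttr-56), as did 8162 of all probe sets. ttr-52 lay at this floor on 17 arrays and read 5.23 on the LK56 B array, ttr-13 lay there on 16 arrays and ttr-29 on 14. The remaining 7 dim probe sets (ttr-8, ttr-10, ttr-14, ttr-20, ttr-32, ttr-39 and that of ttr-49 and ttr-40) stayed under 50, the highest being 49.4 for ttr-10. Nothing can be said about a response of the genes at the floor, TTR-52 included.

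Values are intensities from the GCRMA summary and cannot be set against each other between genes. Each compound was compared with DMSO on the log2 scale with limma, over all probe sets, and the word called is used of an adjusted p (Benjamini-Hochberg) below 0.05. A difference of 1 on this scale is a doubling, and a fold is a ratio of geometric means. The 5 comparisons share the 3 DMSO arrays.

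Of the family, 8 of the 44 probe sets were called with any compound, and 3 of them, those of ttr-44, ttr-2 and ttr-15, were called with 3 compounds, which were LK34, LK35 and LK38 each time. With LK34, 5 members rose (11.4%, against 2.25% of all probe sets) and 1 fell (2.27%, against 1.39%). With LK38, 4 rose (against 2.19%) and 0 fell (against 1.58%). With LK35, 3 rose (against 1.71%) and 0 fell (against 1.88%). With LK32, 2 rose (against 0.927%) and 0 fell (against 0.0133%), and with LK56, 1 rose (against 0.767%) and 0 fell (against 0.0222%). All members called were brighter ones, and of all 9033 brighter probe sets 5.39% rose with LK34, 5.26% with LK38, 4.18% with LK35, 1.78% with LK32 and 1.62% with LK56. At an unadjusted p under 0.05, the members higher than with DMSO numbered 12 for LK32 (against 7.34% of all probe sets), 12 for LK34 (7.39%), 6 for LK35 (6.3%), 12 for LK38 (7.27%) and 6 for LK56 (10.5%). At the same limit, those lower numbered 0 for LK32 (1.17%), 2 for LK34 (4.77%), 2 for LK35 (6.07%), 0 for LK38 (4.91%) and 0 for LK56 (0.794%).

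**Figure D1:**
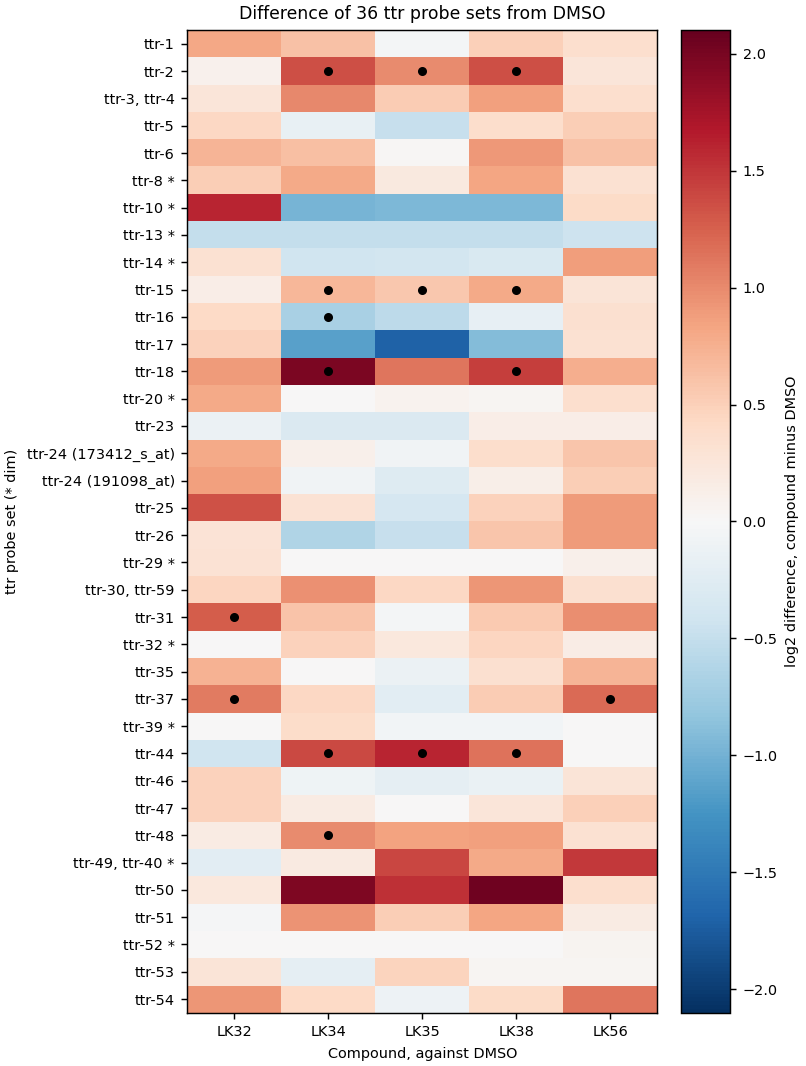
Difference from DMSO of the 36 ttr probe sets that left the floor on at least 1 array, by compound; colour is the log2 difference, compound minus DMSO, a dot marks a call, and an asterisk marks a dim probe set. Dots fall on 8 probe sets, among them ttr-2, ttr-15 and ttr-44 with LK34, LK35 and LK38 each, and ttr-37 with LK32 and LK56.

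The member with the lowest adjusted p was ttr-44. Its intensity was 3547, 3903 and 3478 in the LK34 arrays, 4056, 4821 and 3851 in the LK35 arrays and 3345, 3529 and 2483 in the LK38 arrays. It was 1031, 776 and 1395 with LK32, 1181, 1386 and 1695 with LK56, and 1162, 1402 and 1658 with DMSO. Every LK34, LK35 and LK38 array thus stood above every array of the other 3 conditions, and the LK32 and LK56 arrays overlapped those of DMSO. The rise over DMSO was 2.61-fold with LK34 (log2 difference 1.39, SE 0.21, adjusted p = 0.00252), 3.03-fold with LK35 (1.60, adjusted p = 0.000958) and 2.21-fold with LK38 (1.15, adjusted p = 0.0089). These 3 calls held without any single array.

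ttr-2 behaved in much the same way at the level of its groups, with more spread. The LK34 arrays read 18497, 14972 and 13658, the LK35 arrays 9756, 15563 and 11638, and the LK38 arrays 21263, 15889.7 and 10957. The means were 6571 ± 1095 with LK32, 7274 ± 637 with LK56 and 6109.6 ± 657 with DMSO (SD, n = 3 each). None of the LK34, LK35 or LK38 arrays fell as low as the highest array of the other conditions, 7724. The rise over DMSO was 2.56-fold with LK34 (1.36, SE 0.23, adjusted p = 0.00512), 1.99-fold with LK35 (0.99, adjusted p = 0.034) and 2.54-fold with LK38 (1.35, adjusted p = 0.00509). The LK35 call was lost without any 1 of 9 arrays (DMSO A, DMSO B, DMSO C, LK32 A, LK34 B, LK35 B, LK35 C, LK38 B or LK56 B), where the difference was 0.81 to 1.07.

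The rise of ttr-15 was smaller. Its means were 17532 ± 1332 in LK34 arrays, 16156 ± 2911 in LK35 arrays, 18892 ± 3413 in LK38 arrays and 10806 ± 532 in DMSO arrays (SD, n = 3 each). Its lowest array among those 3 compounds read 14042 (LK35 A), and its highest DMSO array 11137. The differences from DMSO were 0.70 with LK34 (SE 0.14, adjusted p = 0.0128), 0.57 with LK35 (adjusted p = 0.0411) and 0.79 with LK38 (adjusted p = 0.00548). The LK38 call held without any single array. The LK34 call was lost without DMSO C, LK34 A or LK34 B (difference 0.65 to 0.67). The LK35 call was lost without any 1 of 14 arrays (all DMSO, LK32 and LK34 arrays, LK35 B, LK35 C, LK38 B, LK56 B and LK56 C), with differences of 0.42 to 0.62, so it lay close to the limit.

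ttr-18 had the largest fitted rise among the called members, 3.95-fold with LK34 (1.98, SE 0.36, adjusted p = 0.00791). It read 518, 525 and 537 with LK34, 404, 444 and 273 with LK38, and 148, 219.5 and 73 with DMSO. The 3 LK34 arrays agreed closely while the DMSO arrays lay far apart. With LK38 it was 2.75-fold higher than with DMSO (1.46, adjusted p = 0.0456), and this call was lost without DMSO A (1.53), DMSO C (1.02), LK38 A (1.39) or LK38 B (1.32), and at an unchanged 1.46 without LK32 A or any single LK34, LK35 or LK56 array. The means with LK32, LK35 and LK56 were 260.3 ± 98.9, 290.0 ± 22.7 and 230.3 ± 52.5, against 147 ± 73.3 with DMSO (SD, n = 3 each), and these comparisons were not called.

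ttr-48 was called with LK34, at 4878, 5161 and 4171 against 2364, 2318 and 2422 with DMSO. The difference was 0.99 (SE 0.23, adjusted p = 0.0303), and it lost the call without any 1 of the LK34 or DMSO arrays (0.93 to 1.08). With LK35 and LK38 its means were 4359.6 ± 1092 and 4454 ± 1356 (SD, n = 3 each), close to the 4737 ± 510.1 of LK34. Their differences from DMSO, 0.85 and 0.86, were not called as reported. Both were called under quantile normalization (0.82 and 0.80, adjusted p = 0.0316 and 0.0329). They were also called with brighter probe sets only (adjusted p = 0.0209 and 0.0195). Neither was called with an added offset, a replicate block or separate fits of each pair of groups.

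ttr-50, chosen after its values were seen, and ttr-51, among the brightest members, also had higher means with these compounds without reaching a call. ttr-50 read 1811, 1254 and 1167 in LK34 arrays, 962, 1819 and 616 in LK35 arrays, 1914, 1959.6 and 821 in LK38 arrays, and 429, 198 and 526 in DMSO arrays. All 9 compound arrays lay above the DMSO arrays, at differences of 1.96, 1.53 and 2.03 for LK34, LK35 and LK38 (adjusted p = 0.0858, 0.217 and 0.0727). ttr-51 read 15679, 13779 and 10906 with LK34 and 6879, 6876 and 6901 with DMSO, a difference of 0.95 (SE 0.25, adjusted p = 0.0636).

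ttr-16 moved the other way with LK34 and was the one member that fell against DMSO. Its intensity was 11408, 10027 and 9004 with LK34, against 17438, 15579 and 15574 with DMSO, with no overlap. The difference was -0.68 (SE 0.17, adjusted p = 0.0424), and the call was lost without any 1 of 13 arrays (all but LK32 C, LK35 B and the LK38 arrays), with differences of -0.77 to -0.60. With LK35 the arrays read 10193, 13297 and 9800.2, also all below DMSO (-0.56, adjusted p = 0.106), while the LK38 arrays read 16974, 16421 and 10766 and overlapped DMSO (-0.17).

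The members called with LK32 or LK56 were ttr-37 and ttr-31. ttr-37 read 393, 399.9 and 334 with LK32, 389, 379 and 429.9 with LK56, and 173, 162 and 194 with DMSO. Neither compound overlapped DMSO, and the rise was 2.13-fold with LK32 (1.09, SE 0.18, adjusted p = 0.0127) and 2.27-fold with LK56 (1.18, adjusted p = 0.0103). Both calls were lost without DMSO B (1.03 and 1.12). They were also lost when the arrays were quantile normalized (0.87 and 0.87) or centred on their medians (0.89 and 0.89). With LK35, the arrays of ttr-37 read 144, 152 and 158, all below those of DMSO, at a difference that was not called.

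ttr-31 rose with LK32. Its arrays read 70.7, 85.5 and 108 with LK32, against 28.5, 48.1 and 33.2 with DMSO. The 2.42-fold rise (1.28, SE 0.24, adjusted p = 0.0266) was lost without DMSO A, DMSO C or LK32 C (1.11 to 1.23) and under quantile normalization (0.89) or median centring (1.08). With LK56 it read 88.7, 69.7 and 57, also above the DMSO arrays, and was not called. In the direct comparison of LK32 with LK56, given further on, ttr-31 was not called.

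**Figure D2:**
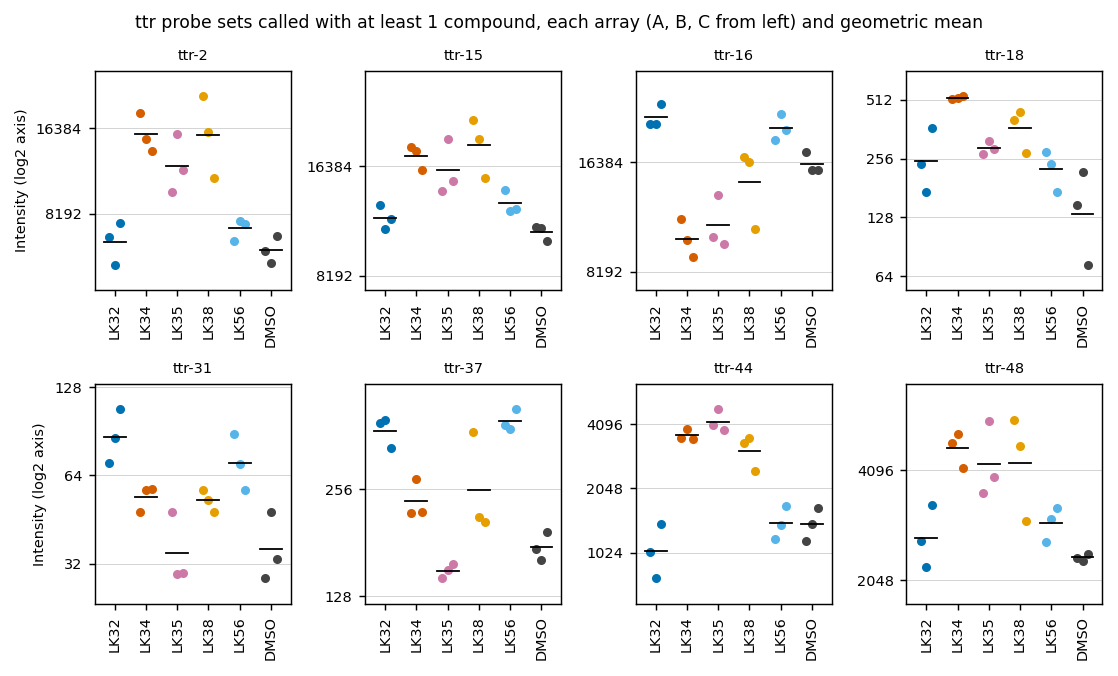
Intensity of the 8 called ttr probe sets on each of the 18 arrays (log2 axis; dots are arrays A, B and C from left, bars are geometric means), by condition with DMSO at the right. The LK34, LK35 and LK38 arrays of ttr-44 and ttr-2 stand above all others, and the LK32 and LK56 arrays of ttr-37 stand above its DMSO arrays of 173, 162 and 194.

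In another count, the 3 arrays of a compound all lay on 1 side of the 3 DMSO arrays. With LK32, 13 members lay wholly above DMSO (29.5%, against 8.73% of all probe sets, and for brighter ones 12 of 26 against 18.7%) and 0 below (against 1.67%). With LK34, 12 lay above (against 10.2%) and 4 below (against 6.39%). With LK35, 9 lay above (against 8.36%) and 5 below (against 6.98%), and with LK38, 10 above (against 8.97%) and 2 below (against 6.48%). Of the 26 brighter members, 11, 9 and 9 lay above with LK34, LK35 and LK38 (against 23.3%, 19.8% and 19.9% of brighter probe sets). Below DMSO lay 2, 3 and 0 of the brighter members (against 14.5%, 15.8% and 14.7%). The dim ttr-10 and ttr-14 lay below with each of these compounds. With LK56, 15 lay above (against 14.7%, and for brighter ones 14 of 26 against 32.5%) and 0 below (against 0.674%).

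The median difference of the brighter members from DMSO was above 0 with 4 of the 5 compounds. It was 0.47 with LK32, against 0.12 over all 9033 brighter probe sets, 0.42 with LK34 against 0.064, 0.51 with LK38 against 0.053, and 0.35 with LK56 against 0.23. With LK35 it was -0.044, against 0.04. The number above 0 was 23, 18, 23 and 26 of 26 with LK32, LK34, LK38 and LK56, and 12 with LK35. Of all 9033 brighter probe sets, 67.5% lay above 0 for LK32, 56.6% for LK34, 55.6% for LK38, 77.8% for LK56 and 54.4% for LK35. The range was widest with LK35, -1.70 (ttr-17) to 1.60 (ttr-44), and with LK34, -1.14 (ttr-17) to 1.98 (ttr-18). With LK38 it ran from -0.90 (ttr-17) to 2.03 (ttr-50), with LK32 from -0.42 (ttr-44) to 1.34 (ttr-25), and with LK56 from 0.013 (ttr-44) to 1.18 (ttr-37). These medians depended on the scaling. After quantile normalization that of LK32 was 0.35 (20 above 0), that of LK34 0.26 (17), that of LK38 0.34 (22) and that of LK56 0.15 (21), with the medians over all brighter probe sets between -0.064 and -0.0038. After median centring the members' medians were 0.27 for LK32 (20 above 0), 0.29 for LK34 (16), 0.38 for LK38 (20) and 0.062 for LK56 (19). On the 18 brighter members annotated to 1 gene and not marked _s_at, a mark of probes shared between transcripts, the LK34 median was only 0.088, with 10 above 0. Those 18 gave 0.49 for LK32, 0.39 for LK38 and 0.51 for LK56, with 17, 15 and 18 above 0, and -0.15 for LK35, with 5 above 0. The LK32 median was 0.31 without LK32 C, and the LK38 median was 0.19 without LK38 A and 0.82 without LK38 C. The LK35 median had no stable sign, since it was 0.14 without LK35 A, 0.046 without LK35 C, 0.013 without DMSO A and 0.038 without DMSO C, and -0.23 without LK35 B. By mean log2 intensity, the highest condition among the brighter members was LK32 for 9, LK34 for 6, LK56 for 6, LK38 for 3, LK35 for 2 and DMSO for 0. Means of linear intensities can rank the conditions otherwise, as for ttr-2, at 16037 with LK38 and 15709 with LK34. The lowest by mean log2 intensity was LK35 for 12, DMSO for 9, LK34 for 3 and LK32 for 2.

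Over all 6 conditions, limma's F test called 10 of the 44 members (22.7%, against 10.6% of all probe sets, and for brighter ones 8 of 26 against 24.4%). They were the 8 described above and the dim probe sets of ttr-10 and ttr-14, which are named here for having passed. ttr-10 read 49.4, 24.5 and 19.3 with LK32, 4.91, 17.7 and 22.3 with LK56, and 9.56, 9.71 and 9.02 with DMSO, and no array of LK34, LK35 or LK38 exceeded 4.91. ttr-14 read 22.8, 13.9 and 12.9 with LK56 and 8.05, 9.59 and 8.53 with DMSO, and its difference from DMSO was 0.88 (SE 0.21, adjusted p = 0.0909). The count was 8 to 17 when each array was left out in turn, and 17 without LK38 C.

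The compounds were then compared with each other, at 1 dose and 1 time. LK35 and LK38, which the study describes as chemically related, were compared by design, and the other 9 of the 10 pairs were added after the comparisons with DMSO were seen. Adjusted p-values run over all probe sets within a pair and were not adjusted further over the 10 pairs, and only for LK35 against LK38 was each array left out in turn.

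Between LK35 and LK38, 0 members were called, against 48 of 22548 probe sets (0.213%), and 4 had an unadjusted p under 0.05 (against 2.57%). The 4 were ttr-37 (LK35 minus LK38, -0.75, 95% interval -1.15 to -0.36, adjusted p = 0.378), ttr-5 (-0.86, -1.46 to -0.25), ttr-31 (-0.60, -1.12 to -0.069) and ttr-16 (-0.39, -0.75 to -0.031). The array values of ttr-5 were 513, 1066 and 691 with LK35 and 1882, 1322 and 899 with LK38, and those of ttr-37 were 144, 152 and 158 with LK35 and 371, 214 and 207 with LK38. For the members that both compounds raised, the intervals spanned 0: ttr-44 at 0.45 (-0.012 to 0.92), ttr-2 at -0.36 (-0.86 to 0.15) and ttr-15 at -0.22 (-0.52 to 0.075). Equal levels are therefore not shown. Of the 26 brighter members, 2 were higher with LK35 than with LK38 and the others lower, with a median of -0.44, against -0.0058 over all brighter probe sets. Leaving out 1 LK35 or LK38 array at a time gave medians of -0.68 (without LK38 C) to -0.22 (without LK38 A), and 2 to 4 members above 0.

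**Figure D3:**
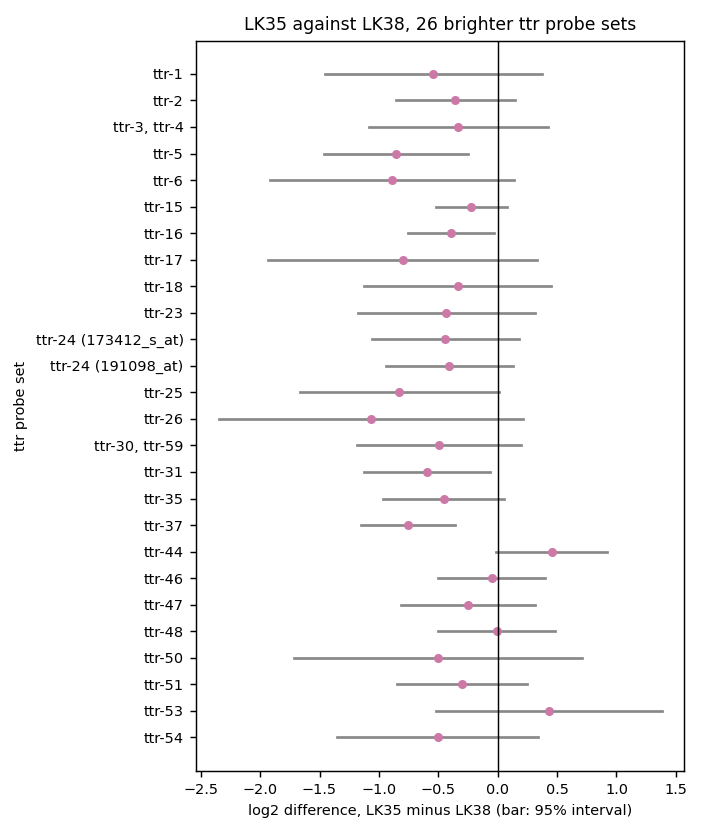
Log2 difference, LK35 minus LK38, of the 26 brighter ttr probe sets (dots) with 95% intervals (bars); the vertical line is no difference. All but ttr-44 and ttr-53 lie left of the line, and the intervals of ttr-5, ttr-16, ttr-31 and ttr-37 do not reach it.

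In 3 of the added pairs no member was called. Between LK34 and LK35, 0 were called (against 0.0887% of all probe sets) and 3 had an unadjusted p under 0.05 (against 2.24%). Between LK34 and LK38, 0 were called (against 0.253%) and 1 had such a p (against 2.06%). Between LK32 and LK56, 0 were called (against 0.337%) and 3 had such a p (against 5.64%). ttr-37 differed by -0.091 between LK32 and LK56, with an interval of -0.49 to 0.31.

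Between LK32 or LK56 and each of LK34, LK35 and LK38, members were called in every pair. LK32 differed from LK34 in 8 members (against 7% of all probe sets), 4 of them higher and 4 lower with LK32. It differed from LK35 in 10 (8 higher and 2 lower, against 8.36%) and from LK38 in 4 (1 higher and 3 lower, against 6.31%). LK34 differed from LK56 in 5 (2 higher and 3 lower, against 9.14%), LK35 from LK56 in 8 (1 higher and 7 lower, against 9.85%), and LK38 from LK56 in 5 (3 higher and 2 lower, against 8.83%). Among brighter probe sets the share called was higher throughout. It was 19% between LK32 and LK35, where 9 of the 26 brighter members were called, and 20.9% between LK34 and LK56, where 4 were.

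ttr-44 was called in all 6 of these pairs. It was lower with LK32 than with LK34 (-1.81, adjusted p = 0.000237), LK35 (-2.03, adjusted p = 8.15e-05) or LK38 (-1.57, adjusted p = 0.000646), and higher with LK34 (1.37), LK35 (1.59) or LK38 (1.13) than with LK56. ttr-2 was called in 5 of them and, between LK35 and LK56, differed by 0.74 (adjusted p = 0.0689). ttr-15 was lower with LK32 than with LK34 (-0.56, adjusted p = 0.0266) or LK38 (-0.66, adjusted p = 0.0116), and higher with LK38 than with LK56 (0.53, adjusted p = 0.0316). ttr-51 was lower with LK32 than with LK34 (-0.98, adjusted p = 0.0355).

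Other members differed in the opposite direction, and those not among the called members above are named here after their values were seen. ttr-16 was higher with LK32 than with LK34 (1.11, adjusted p = 0.00131) or LK35 (0.98, adjusted p = 0.00245), and lower with LK34 (-1.01) or LK35 (-0.89) than with LK56. ttr-37 was higher with LK32 than with LK34 (0.66) or LK35 (1.31), and lower with LK34 (-0.75), LK35 (-1.40) or LK38 (-0.65) than with LK56. With LK32 against LK35, ttr-17 (2.19, adjusted p = 0.0201), ttr-25 (1.69, adjusted p = 0.0159), ttr-31 (1.32, adjusted p = 0.00432), 1 of the ttr-24 probe sets (1.13, adjusted p = 0.0122) and ttr-35 (0.84, adjusted p = 0.0457) were higher. ttr-17 (-2.03), ttr-31 (-1.02) and ttr-35 (-0.83) were likewise lower with LK35 than with LK56, as was ttr-5 (adjusted p = 0.0402). The dim ttr-10 was higher with LK32 than with LK34, LK35 or LK38, and the dim ttr-14 lower with each of these 3 than with LK56.

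Several members are neighbours on the genome, with no protein-coding gene or pseudogene between them in the RefSeq annotation of assembly WBcel235. The values of these neighbours were set side by side, and annotated genes of other kinds between them were not looked for. ttr-16 and ttr-17 are adjacent. Where ttr-16 was low in LK34 and LK35 arrays, ttr-17 was low as well, at 2327, 1969 and 1201 with LK34, 552, 2331 and 1315 with LK35, and 4702, 2905 and 4272 with DMSO. All 6 compound arrays lay below the DMSO arrays, by -1.14 and -1.70 on the log2 scale, but the spread was wide (SE 0.52) and neither was called (adjusted p = 0.41 and 0.117). In LK38 arrays ttr-17 read 3524, 2540 and 998, which overlapped DMSO (-0.90, adjusted p = 0.566), while ttr-16 differed there by only -0.17. With LK32, ttr-17 read 4958, 4423 and 7364, and with LK56 5097, 4904 and 4605, beside ttr-16 at 20806, 20869 and 23656 with LK32 and 18858, 22168 and 20049 with LK56.

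ttr-3, ttr-2 and ttr-1 follow each other as well. ttr-2 rose with LK34, LK35 and LK38, as given above. The probe set of ttr-3, which also matches the pseudogene ttr-4, read 546, 306 and 258 in LK34 arrays, 229, 306 and 228 in LK35 arrays, 437, 326 and 224 in LK38 arrays, and 145, 194 and 188 in DMSO arrays. All 9 of these compound arrays lay above its DMSO arrays, by 1.01, 0.53 and 0.86 on the log2 scale (adjusted p = 0.174, 0.649 and 0.286). ttr-1, on the other side of ttr-2, read 93.1, 99.4 and 73.7 for LK34, 35.3, 111 and 44.5 for LK35, 127, 92.7 and 45.3 for LK38, and 60.8, 54.3 and 58 for DMSO. Neither ttr-1 nor the ttr-3 probe set was called with any compound.

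The run of ttr-24, ttr-25 and ttr-26 had its highest means with LK32 or, for ttr-26, with LK56. Both probe sets of ttr-24 gave the same order of arrays in the LK32 group, at 5093, 3809 and 6527 on 1 and 3624, 2999 and 4587 on the other. With DMSO they read 3369, 2143 and 3348, and 2197, 1868 and 2053. Their differences from DMSO with LK32 were 0.80 and 0.86, and neither was called (adjusted p = 0.336 and 0.181). The pair agreed in sign with LK32, LK35, LK38 and LK56 and differed in sign with LK34 (0.10 and -0.07), where both were within their errors (SE 0.29 and 0.25). ttr-25 read 2467, 1990.2 and 3105 with LK32 and 1048, 865 and 1035 with DMSO, a difference of 1.34 (SE 0.39, adjusted p = 0.178) without overlap. ttr-26 read 282, 212 and 227 with LK56 and 109, 87.5 and 221 with DMSO, and overlapped it.

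ttr-54 and ttr-53 are adjacent as well, and neither was called. ttr-54 read 559, 555 and 488 with LK56 against 251, 163 and 351 with DMSO (1.13, SE 0.39, adjusted p = 0.248), whereas ttr-53 read 523, 264 and 673 with LK56 against 481, 368 and 482 with DMSO (0.041). Only the first of them stood clear of its DMSO arrays. Adjacent members at or near the floor, such as ttr-27, ttr-28 and ttr-29, give no comparison.

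**Figure D4:**
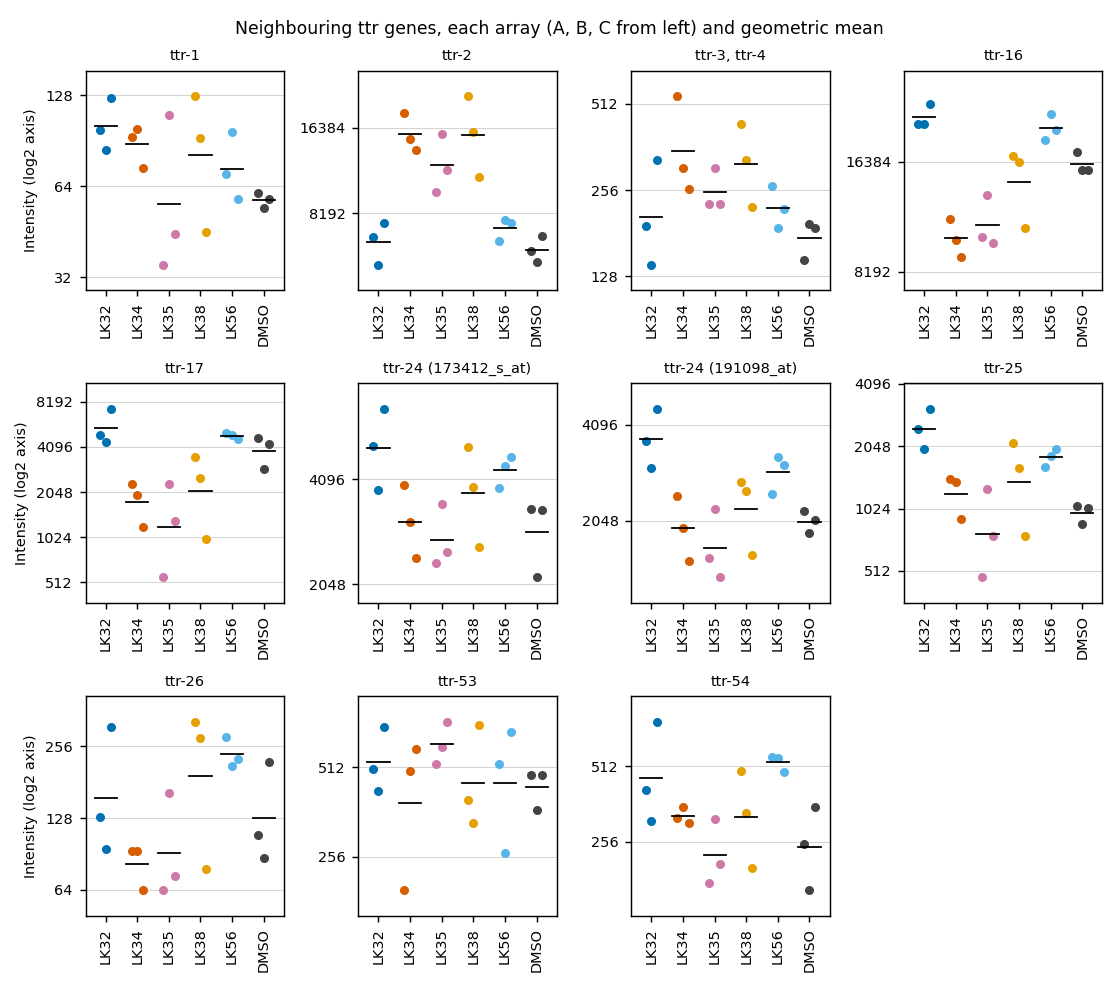
Intensity on each array (log2 axis; dots are arrays A, B and C from left, bars are geometric means) of 11 probe sets of neighbouring ttr genes, by condition with DMSO at the right. ttr-16 and ttr-17 are lowest with LK34 and LK35, while ttr-2 is highest with LK34, LK35 and LK38 and its neighbour ttr-1 is not.

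ttr-46, among the brightest members, was called in no comparison. It read 3733, 4077 and 2961 in LK34 arrays, 2971, 4164 and 2933 in LK35 arrays, 4475, 3465 and 2600.1 in LK38 arrays, and 4253, 3570.4 and 3549 in DMSO arrays. Its differences from DMSO lay between -0.19 (LK35) and 0.48 (LK32, adjusted p = 0.52). The brighter members not described above, ttr-6, ttr-23, ttr-47 and the probe set of ttr-30 and ttr-59, were called in no comparison.

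The spread of the family between arrays of 1 condition was itself uneven. Within LK38, array A was the highest of the 3 for 22 of the 26 brighter members, against 32.5% of all brighter probe sets, and array C the lowest for 25, against 35.2%. The median of the 26 was 10.89, 10.51 and 9.62 on the LK38 A, B and C arrays, a span of 1.27, while the median of all 9033 brighter probe sets was 8.77, 8.77 and 8.80. Within LK35, array B was highest for 23 members (against 38.6% of all), and the medians spanned 1.17, against 0.36 for all. Within LK32, array C was highest for 23, against 72.7% of all, and within LK34, array C was lowest for 22, against 26.9%. The spans were 0.21 within LK56 and 0.39 within DMSO. Since the members were high or low together on arrays of a condition, they do not count as separate observations of it. Without LK38 C, 8 members were called higher with LK38 in place of 4.

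**Figure D5:**
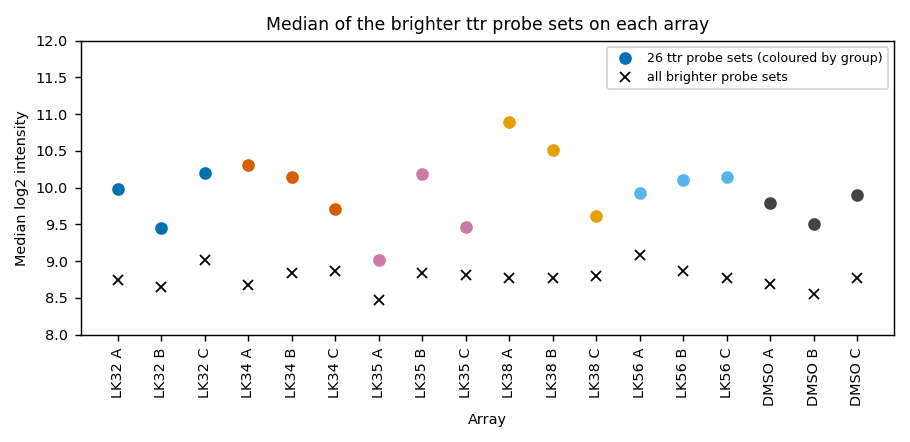
Median log2 intensity of the 26 brighter ttr probe sets (dots, coloured by condition) and of all 9033 brighter probe sets (crosses) on each array. The dots of LK38 range over 1.27 and those of LK35 over 1.17, while the crosses of LK38 lie at 8.77, 8.77 and 8.80.

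Markers of several tissues moved with the same compounds, and their part in the ttr results was not tested. The sum of 31 major sperm protein probe sets was 16618 to 25515 with LK34, 15278 to 16362 with LK35 and 18132 to 27327 with LK38, against 81833 to 96176 with DMSO, and 30, 30 and 29 of them were called lower. With LK32 and LK56 the sums were 73868 to 75954 and 67644 to 125095, and 0 were called. Of the 31, only 1 (msp-32) lay at the floor on every array. Among 18 oocyte and eggshell probe sets, 3, 4 and 1 were higher with LK34, LK35 and LK38. Their sums were 110667 to 121900 for LK34, 113929 to 119470 for LK35 and 103273 to 116675 for LK38, against 84492 to 88714 for DMSO. With LK32 and LK56 they were 79269 to 89554 and 71196 to 93988. The brightest were probe sets of perm-4 (DMSO means of 13145 and 13447) and perm-2 (14027), so the sums say little about the other markers.

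The 10 marker probe sets of the intestine summed to 33259 to 50147 in LK34 arrays, 27262 to 39533 in LK35 arrays, 29298 to 51071 in LK38 arrays, 57533 to 63292 in LK32 arrays and 56044 to 60629 in LK56 arrays, against 46703 to 54345 with DMSO. Most of each sum came from asp-1 and cpr-1, with DMSO means of 36112 and 10499, so the sums say little about the other markers. Of the 10, 4 were lower with LK35 and 2 each with LK34 and LK38, and 1 was higher with LK38 and 1 with LK32. Of 18 body wall muscle probe sets, 3 were at the floor (1 of unc-22 and 2 of lev-11), 1 was lower with LK34 and 3 with LK35, and their median difference was 0.48 with LK32 and -0.58 with LK35. Of 12 epidermal probe sets, 1 was higher and 1 lower with LK34 and 1 higher with LK35. Of 16 neuronal probe sets, 2 were at the floor (of snt-1 and ida-1). A probe set of snb-1, which encodes synaptobrevin, was higher with LK34 (0.44), LK35 (0.35) and LK38 (0.39). Another snb-1 probe set was not called with these compounds (0.14, 0.15 and 0.33). Most markers of each of these tissues were thus above the floor.

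Genes of corpse engulfment and cell death, and worm homologs of 5-hydroxyisourate hydrolase, were also counted. Of 34 probe sets for 20 genes of corpse engulfment and cell death, 3 lay at the floor (for egl-1, ced-3 and 1 of those for ced-10). With LK34, 1 was higher (against 2.25% of all probe sets), pat-3, a beta integrin subunit (0.80, adjusted p = 0.0154). With LK38, 1 was higher (against 2.19%), ced-7, an ABC transporter needed for engulfment (0.87, adjusted p = 0.027). No other was called with any compound. Among those not called, another pat-3 probe set differed by 1.02 with LK34 (adjusted p = 0.165). Another ced-7 probe set differed by 0.29 with LK38 (adjusted p = 0.856). The receptor gene ced-1 read 48.5 ± 3.55 in LK34 arrays, 46.3 ± 1.17 in LK35 arrays, 49.5 ± 3.37 in LK38 arrays and 42.7 ± 3.33 in DMSO arrays on the brighter of its probe sets (SD, n = 3 each). Its dimmer probe set read 31.8 ± 5.97 for LK34, 36.8 ± 10.6 for LK35, 37.2 ± 11.4 for LK38 and 17.9 ± 11.5 for DMSO (SD, n = 3 each), differences of 1.16, 1.34 and 1.35 on the log2 scale that were not called (adjusted p = 0.377, 0.255 and 0.247). Of the worm homologs of 5-hydroxyisourate hydrolase, R09H10.3 read 1467 ± 218 with LK32, 1518 ± 150 with LK56 and 1031 ± 85.7 with DMSO (SD, n = 3 each) and was not called, and ZK697.8 lay at the floor on every array.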

How the data were processed

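Per the labels and the study's methods, RNA of whole young adults was hybridised to 1-colour Affymetrix arrays. The authors summarised the arrays with GCRMA and deposited intensities on a linear scale, from 4.61 to 58200.7. The version is not given in the sources used here, and a normalization between arrays can hide a shift shared by every transcript. The deposited values still differed in level between arrays. The median log2 intensity of all brighter probe sets ran from 8.48 (LK35 A) to 9.09 (LK56 A). All 18 columns were used (0 left out). Probe sets were named from the platform annotation. The rule for members reads gene names only, but the family, the lists and the tests were chosen with earlier results of these data known.

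Log2 intensities, with no offset, went into limma (version 3.58.1, under R 4.3.3) with a mean per group (6 groups). The variance was shared by all arrays, with 12 degrees of freedom left and 0.33 added by the prior. The 77 control probe sets were left out. Adjusted p-values are limma's with Benjamini-Hochberg adjustment over 22548 probe sets, means ± SD are of linear intensities, and 95% intervals are limma's. The number of arrays limits the precision. The floor held 46.3% to 49.4% of each array's values, within 0.1%. The mean correlation of an array with the others of its group was 0.986 to 0.997. Plots used matplotlib 3.10.9 (Python 3.11.15).

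Members named with their values are up to 10 called members with the largest difference (at most 5 each way per compound), those called with 3 or more compounds, the 5 brightest of 1 gene, ttr-52, and probe sets of the same gene (ttr-24). ttr-33 and ttr-11 belonged to the list of genes with known roles and were not analysed here, having no probe set among the members. RefSeq (WBcel235) lists 59 ttr genes, 13 of which are not among the members. Probe set IDs ending in _s_at, 7 of the 44 and including ttr-15, ttr-18 and ttr-44, can match more than 1 transcript. The letters A, B and C were checked for pairing through the deviations of arrays from their group means. Over the 15 pairs of groups, same-letter arrays correlated at -0.46 to 0.54 for A, -0.29 to 0.47 for B and -0.29 to 0.79 for C. Of the 15, 2 exceeded 0.1 for A, 6 for B and 7 for C. With no common sign over the groups, the arrays were not treated as paired. Whether some of the groups shared a batch by letter was not tested. The fit was tested on simulated arrays (LK34 against DMSO, 22548 probe sets), where log2 changes of 1.5 were called for 78 of 100 probe sets and log2 changes of 3 for 95 of 100. The changes were put into brighter probe sets only, and 9 unchanged probe sets were called as well. The simulated noise was independent between probe sets, unlike that of the members here, so these shares need not hold for them.

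Alternatives were quantile normalization, median centring, an added offset (16), testing brighter probe sets only, probe sets of 1 gene only, a replicate block, separate fits of each pair of groups, a fold of at least 2, leaving out each array, and, added after the data were seen, omitting LK38 C, LK35 A and LK32 C at once.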

Additional observations from a re-analysis of the deposited data

How the results depend on the processing

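Of the counts against DMSO, those of members lower with LK32 (0) and LK56 (0) and the LK35 against LK38 count (0) stayed at 0 under every alternative. Among the values of single named members under the alternatives, 2109 kept their side of the threshold, 97 lost the call and 44 gained it. The sign turned in 0 values of members called as reported and in 42 of members not called, and that of the LK35 median of the brighter members turned without LK35 A (0.14), LK35 C (0.046), DMSO A (0.013) or DMSO C (0.038). After quantile normalization and after median centring, 0 members were higher with LK32 (2 as reported) and 0 with LK56 (1 as reported), and 1 was lower with LK35 (0 as reported). With brighter probe sets only, 5 were higher with LK35 (3), 7 with LK38 (4) and 2 with LK56, and 2 lower with LK35. With probe sets of 1 gene only, which drops the _s_at probe sets of ttr-15, ttr-18 and ttr-44, 2 were higher with LK34 (5), 0 with LK35, 1 with LK38, and 0 lower with LK34 (1). With each pair of groups fitted alone, 0 were higher with LK32, 0 with LK35 and 0 with LK38, and 1 was lower with LK35 and 1 with LK38. In these fits the lower member was the dim ttr-10 for LK35 and LK38. It was ttr-10 for LK34 as well, where ttr-16 lost its call. With a fold of at least 2 as well, 3 were higher with LK34, 1 with LK35 and 0 lower with LK34. With LK38 C, LK35 A and LK32 C all omitted, a setting chosen after seeing the data, 1 was higher with LK32, 9 with LK34, 9 with LK38 and 2 with LK56.

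With the letters as a replicate block, 1 member was higher with LK32, and 4, 2, 3 and 1 with LK34, LK35, LK38 and LK56. Leaving out each array in turn gave 1 to 3 members higher with LK32, 3 to 7 with LK34, 1 to 4 with LK35, 3 to 8 with LK38 and 0 to 2 with LK56, 0 to 1 lower with LK34, 0 to 2 lower with LK35, and 8 to 17 in the F test. The F test has no value for the separate fits or the fold limit. An alternative background correction was not run, since the values used are already summarised. Where a cause is not given, it was not tested.

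With 3 arrays per condition and 8 members at the floor, small changes and changes of dim members were not detectable, and a miss is not evidence of equal levels.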
